A study of Mus musculus with 4 samples.

Results

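The genes described here encode the enzymes that write and erase lysine acetylation and a set of bromodomain proteins that read it. They were 37 genes chosen by function, with earlier results of these data already known, out of 21779 protein-coding genes placed on the genome. The set held 13 lysine acetyltransferases and coactivators, 11 zinc-dependent deacetylases, 7 sirtuins and 6 bromodomain genes. A gene was counted as having a peak when the summit of a listed peak, its point of highest signal, lay in the gene or within 5 kb of it on mm10. By this rule 3 of the 37 genes had a peak, each with 1, and 34 had none. The list held 722 peaks in all.

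The series is a chromatin immunoprecipitation sequencing (ChIP-seq) study of microglia, immune cells that reside in the brain, and asked where GAPDH, a glycolytic enzyme that can enter the nucleus, sits on chromatin under stress. All 4 libraries came from C57BL/6 mice given lipopolysaccharide (LPS), a bacterial product that sets off inflammation, into the abdomen on 4 consecutive days, and from cortical cells taken with beads against CD11b, a surface protein that other myeloid cells carry too. In 2 libraries the chromatin was precipitated with the antibody the labels call AceGAPDH, and the other 2 were input chromatin; mouse age and sex, and whether libraries 1 and 2 stand for different mice, are not given in the labels used here. What was analysed is 1 list of peaks with their summits for the series as a whole, read here as AceGAPDH against input, an assumption that the list itself does not settle, so a peak is not by itself shown to be GAPDH binding. No value exists per library, no untreated mouse enters, and no difference between conditions or libraries could be tested.

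Acetyltransferases transfer an acetyl group from acetyl-CoA to lysines of histones and other proteins, which loosens chromatin and marks active promoters and enhancers. Deacetylases remove it, the zinc-dependent ones by hydrolysis and the sirtuins at the cost of NAD, and bromodomains bind the acetylated lysine. CBP and p300, the products of Crebbp and Ep300, are known to acetylate nuclear GAPDH itself and serve as coactivators of NF-kB in the inflammatory response. In microglia, deacetylases are known to restrain or shape the response to LPS.

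Peaks were listed in Crebbp, Kat2b and Hat1, all of them acetyltransferase genes. That is 8.11% of the 37 genes (Wilson 95% interval 2.80 to 21.3%), where 2.0% of all coding genes had a peak by the same rule. Among the 13 acetyltransferase and coactivator genes the share was 23.1% (8.18 to 50.3%). The 11 zinc-dependent deacetylase genes, the 7 sirtuin genes and the 6 bromodomain genes had 0 peaks, and the upper Wilson limits that these counts leave are 25.9%, 35.4% and 39.0%. These intervals cover counting error only and treat the genes as alike, which they are not in length. With 1 list and no values per library, these shares are a description with no test.

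Crebbp encodes CBP, a large coactivator with both an acetyltransferase domain and a bromodomain. The gene (RefSeq gene 12914, minus strand) lies on mm10 at chromosome 16, 4081334 to 4213957, and is 132624 bp long. Its peak, at 4087118 to 4087258, was 141 bp long, with a score of 53.67 at a summit height of 6 (exact Poisson 95% interval 2.20 to 13.1). Score and height are the authors' own values: the score rates the peak against background on a scale the list does not state, and the height is the pileup of sequenced fragments at the summit. The summit lay inside the gene, 126.2 kb downstream of the annotated start and 5826 bp before the 3' end of the gene. The next coding gene was Trap1, a mitochondrial chaperone gene, at 9320 bp.

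Kat2b encodes PCAF, an acetyltransferase of histone H3 that works in large coactivator complexes. The gene (RefSeq gene 18519, plus strand) lies at chromosome 17, 53566774 to 53672721, and is 105948 bp long. The peak at 53663723 to 53663953 was 231 bp long, with a score of 59.93 at a height of 8 (Poisson interval 3.45 to 15.8). It was thus the longest and highest-scoring of the 3, although the interval of its height overlaps those of the others. These intervals cover counting error only. They leave out that a height is the maximum of a peak already selected for its signal, so they are no comparison of the peaks. Its summit lay inside the gene, 96.9 kb downstream of the first and 79.7 kb downstream of the second of 2 annotated starts, and 8873 bp before the 3' end. Sgo1, which encodes the shugoshin that protects centromeric cohesion, was the next gene at 10.9 kb.

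Hat1 encodes the enzyme that acetylates newly made histone H4 before it is placed on DNA. The gene (RefSeq gene 107435, plus strand) lies at chromosome 2, 71389260 to 71441622, and is 52363 bp long. Its peak at 71393939 to 71394083 was 145 bp long, with a score of 52.61 at a height of 6 (Poisson interval 2.20 to 13.1). Here the summit lay near the other end of the gene, 4770 bp downstream of the annotated start. The nearest other annotated gene was the pseudogene Gm13642 at 17.8 kb, itself inside Hat1, and the nearest other coding gene was Slc25a12, a mitochondrial carrier gene, at 26.2 kb. Whether any of the 3 summits falls in an exon or an intron was not determined here.

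**Figure D1:**
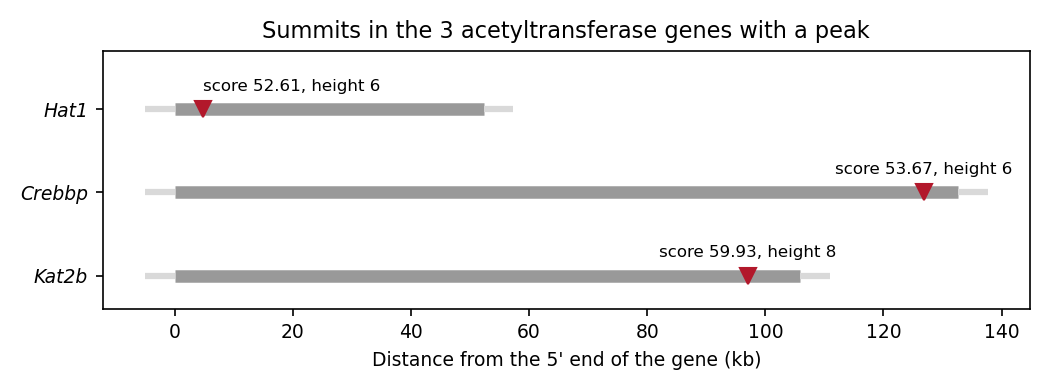
Position of the summit (red triangle) in Hat1, Crebbp and Kat2b, with the horizontal axis in kb from the 5' end of each gene. Dark bars are the genes and pale bars the 5 kb on each side; the Hat1 summit lies 4.77 kb from the 5' end, and those of Crebbp and Kat2b lie close to the 3' end.

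All 3 summits lay in the outer parts of the gene, within 10% of its length from one end. Counted from the 5' end, the Hat1 summit stood at 9.11% of the gene's length, that of Kat2b at 91.6% and that of Crebbp at 95.6%. Over all coding genes, 88 of 349 pairs of a summit and the gene that holds it (25.2%) lay in those outer parts, and in genes of 50 to 150 kb, the range that spans these 3, 24 of 112 did (21.4%). This feature was picked out after the positions were seen, and no test was made of it. No listed acetyltransferase summit lay within 1 kb of an annotated start.

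Hat1 was the only one of the 3 genes whose summit lay within 5 kb of an annotated start, so the 250 bases before that start are shown. Beside them are those of Ing3, which encodes a subunit of the TIP60 acetyltransferase complex and whose summit lay 1408 bp downstream of its first start. Gapdh also had summits within 5 kb downstream of its annotated start. That start lies inside the gene, so the bases before it are not shown. Both windows lie outside the listed peaks, both are on the plus strand of GRCm38.p6 as given by RefSeq, and capitals mark matches to the motifs named after them.
Hat1, chr2:71389010-71389259: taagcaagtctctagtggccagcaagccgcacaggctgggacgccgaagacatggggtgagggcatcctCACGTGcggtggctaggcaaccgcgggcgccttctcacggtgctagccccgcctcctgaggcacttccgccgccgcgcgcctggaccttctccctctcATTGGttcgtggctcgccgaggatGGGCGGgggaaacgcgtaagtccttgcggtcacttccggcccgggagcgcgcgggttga
Ing3, chr6:21949321-21949570: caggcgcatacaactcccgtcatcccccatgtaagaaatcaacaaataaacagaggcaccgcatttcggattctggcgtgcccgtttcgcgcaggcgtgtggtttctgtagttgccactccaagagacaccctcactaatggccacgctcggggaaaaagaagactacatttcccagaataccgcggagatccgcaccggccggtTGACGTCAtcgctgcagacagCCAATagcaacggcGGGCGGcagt

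The motifs were searched on both strands of the 250 bases, and no match shown overlaps another. The GC box GGGCGG occurs once in each window and in 32.7% of 32851 RefSeq promoter windows of this length. The CCAAT box occurs once in each window (as ATTGG in Hat1) and in 33.8% of all windows. The E-box CACGTG occurs in Hat1 and in 6.02% of all windows, and the cyclic AMP response element TGACGTCA occurs in Ing3 and in 1.55% of all windows. The TATA box TATAAA, present in 12.4% of all windows, is in neither. The Hat1 window holds 27 CG dinucleotides and the Ing3 window 21, against a median of 6 over all windows. A match is a description of these letters and no evidence of a bound factor.

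The peaks of Hat1 and Crebbp were low within the list, and that of Kat2b was above its median in score and at its median of 8 in height. The scores of the whole list ran from 50.03 to 1479.61 with a median of 56.57, so that the scores of Hat1 (52.61) and Crebbp (53.67) were below the median and that of Kat2b (59.93) above it. By score, Kat2b ranked 271 of 722, Crebbp 497 and Hat1 597. Expressed as shares, 37.4% of all peaks scored higher than the Kat2b peak, 68.7% higher than that of Crebbp and 82.5% higher than that of Hat1.

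The scores were ordinary for peaks of the same height. The 127 peaks of height 6 had a median score of 53.74 (range 50.46 to 71.77), beside 53.67 and 52.61 for Crebbp and Hat1. The 172 peaks of height 8 had a median of 56.54 (50.49 to 105.78), beside 59.93 for Kat2b. The median score of the 407 peaks that met the same 5 kb rule for any coding gene was 56.54, close to that of the whole list. The nearest other summit was 0.261 Mb from that of Hat1, 0.599 Mb from that of Crebbp and 0.800 Mb from that of Kat2b. No peak with a score of at least 60 was listed at any of the 37 genes.

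**Figure D2:**
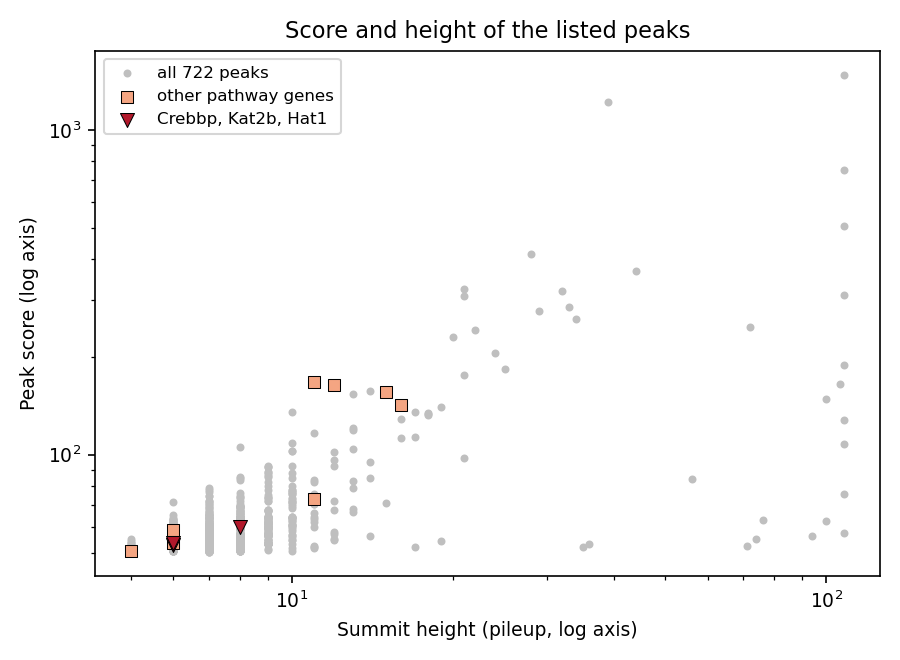
Score against summit height, both on log axes, for all 722 peaks (grey), the peaks at Crebbp, Kat2b and Hat1 (red triangles) and those at other genes of the acetylation pathway (orange squares). The triangles sit in the dense lower left at heights of 6 to 8, whereas 4 squares, 3 of Gapdh and 1 of Acacb, lie above a score of 100.

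The 10 acetyltransferase and coactivator genes without a peak included the closest relatives of the genes with one. Ep300, which encodes p300, the paralog of CBP, is 65869 bp long and had its nearest summit 670.5 kb away. Kat2a, which encodes GCN5, the paralog of PCAF, is 7740 bp long, and its nearest summit was 1.54 Mb away. Both paralogs without a peak are shorter than their partners with one, but 6 genes of the set that are longer than Crebbp had no peak either. Whether length plays a part in these pairs was not tested. The absence of a peak here says only that no signal past the caller's limit was listed.

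The MYST family, named after its founding acetyltransferases, had no peak in any of its 5 genes. Kat7 (HBO1, which acetylates histones at replication origins) had a summit 363.0 kb past its 3' end. Kat6b, a 173263 bp gene for the MORF enzyme, had its nearest summit at 827.0 kb, and Kat6a, for its relative MOZ, at 1.34 Mb. Kat5, which encodes TIP60 of the DNA damage response, is 8543 bp long and lay 2.62 Mb from a summit. Kat8 (MOF, which acetylates histone H4) lay 6.13 Mb from one, farther than any other autosomal member.

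The 3 nuclear receptor coactivator genes are long and had no peak either. Ncoa3 is the member just outside the rule: a summit lay 28.2 kb from the gene at lower coordinates, in a peak at 165964317 to 165964465 on chromosome 2 (score 59.93, height 8). No member had a summit between 0 and 28.2 kb outside the gene, so the choice of 5 kb or 10 kb around the gene did not alter the count. Ncoa2, of 235123 bp, had its nearest summit at 494.3 kb, and that peak was high, with a score of 366.98 at a height of 44. Ncoa1, of 229845 bp, lay 1.14 Mb from a summit of height 108.

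**Figure D3:**
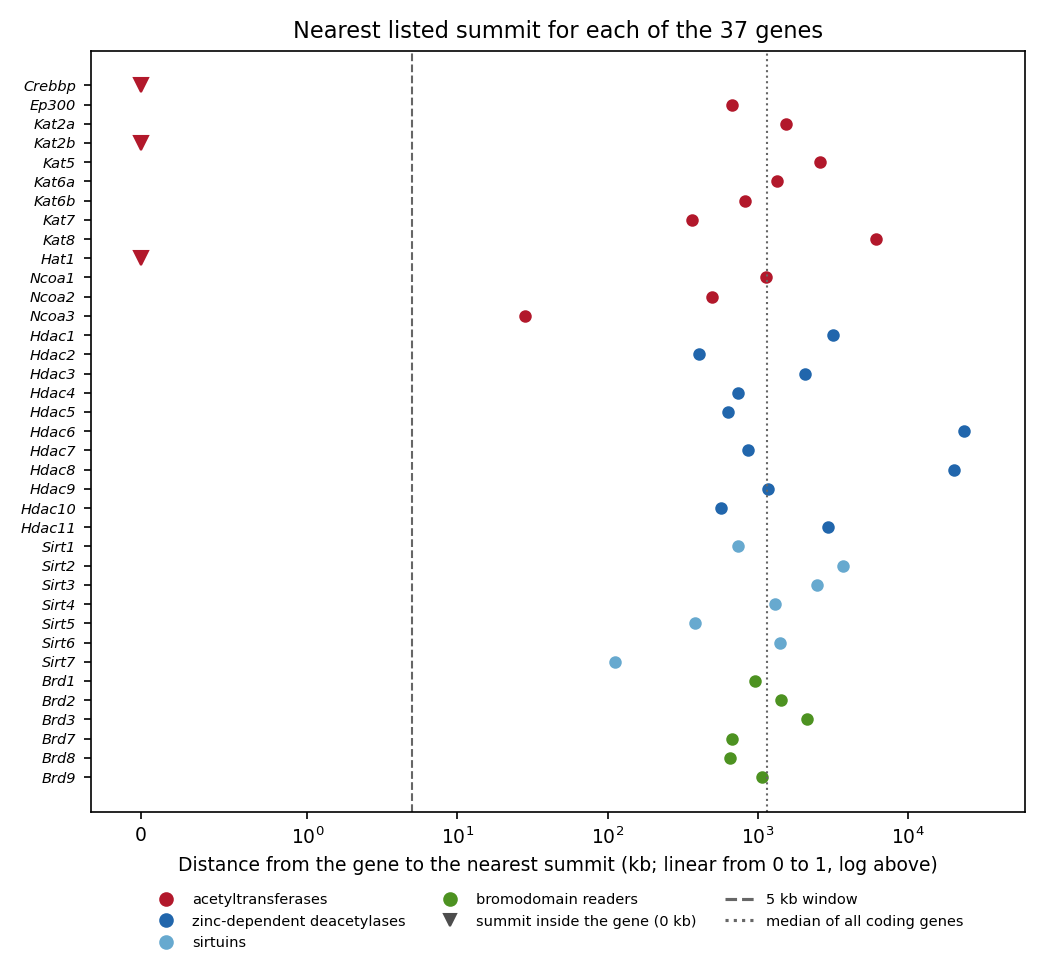
Distance in kb from each of the 37 genes to the nearest listed summit, on an axis that is linear from 0 to 1 kb and logarithmic above; triangles at 0 are summits inside the gene, the dashed line is the 5 kb window and the dotted line the median of all coding genes (1146 kb). Crebbp, Kat2b and Hat1 sit at 0, Ncoa3 follows at 28.2 kb, and Hdac6 and Hdac8 on chromosome X lie beyond 20 Mb.

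The class I deacetylases, most of which work in corepressor complexes in the nucleus, had 0 peaks in 4 genes. Hdac2 had the nearest summit of the 4, at 409.6 kb (score 64.86, height 8). The nearest summit was 2.07 Mb from Hdac3, the catalytic subunit of the NCoR complex, and 3.18 Mb from Hdac1. Hdac8 lies on chromosome X, where 5 peaks were listed in all, and its nearest summit was 20.3 Mb away.

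The class IIa deacetylases shuttle between nucleus and cytoplasm and repress MEF2 target genes. They include the longest gene of all 37, Hdac9, with 869516 bp and no peak; its nearest summit was 1.18 Mb away. Hdac4, the second longest with 266924 bp, was also without a peak (nearest summit 737.4 kb). Hdac5 (34426 bp) and Hdac7 (51842 bp) had their nearest summits at 637.9 and 858.5 kb. Of the remaining deacetylases, Hdac10, a polyamine deacetylase gene and the shortest of the 37 at 5398 bp, lay 566.2 kb from a summit. Hdac11, the only class IV gene, lay 2.95 Mb from one. Hdac6, which encodes the cytoplasmic tubulin deacetylase and lies on chromosome X, had the most distant summit of all 37 genes, at 23.8 Mb.

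The sirtuin genes are short, from 6006 to 29815 bp, and none had a peak. Sirt7, which encodes the nucleolar sirtuin, came closest, with a summit 112.3 kb before its 5' end (score 54.69, height 6); that summit lay 5302 bp from Cbr2, a carbonyl reductase gene, just outside the window of that gene. Sirt1, which encodes the nuclear deacetylase of p53 and of NF-kB, had its nearest summit at 739.6 kb, and Sirt6, whose product acts on histone H3, at 1.41 Mb. For the mitochondrial sirtuins the distances were 382.8 kb (Sirt5, a desuccinylase gene), 1.30 Mb (Sirt4) and 2.49 Mb (Sirt3, the main mitochondrial deacetylase gene). Sirt2, whose product is mostly cytoplasmic, lay 3.69 Mb from a summit.

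The 6 bromodomain genes were also without a peak. The BET genes Brd2 and Brd3, whose products bind acetylated histones at active genes, had their nearest summits at 1.43 and 2.13 Mb. Those of Brd7 and Brd9, which encode subunits of SWI/SNF chromatin remodelling complexes, lay at 677.6 kb and 1.07 Mb. Brd8, a subunit gene of the TIP60 complex, lay 654.9 kb and Brd1, a scaffold gene of MYST complexes, 960.6 kb from a summit. Over all 37 genes the median distance was 960.6 kb, beside 1146 kb for all coding genes. Of the 34 genes without a peak, 6 had a summit within 500 kb and 18 had none within 1 Mb. The 4 annotated pseudogenes of these genes, Kat2b-ps, Kat6b-ps1, Kat6b-ps2 and Hdac1-ps, had no peak within 5 kb.

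Gene length matters for such counts, because a long gene offers more room for a summit. Crebbp and Kat2b are the 7th and 8th longest of the 37 genes and Hat1 the 13th; 6 longer genes (Hdac9, Hdac4, Ncoa2, Ncoa1, Hdac8 and Kat6b) had no peak. Of the 8 genes of 100 kb or longer, 2 had a peak (25%), where 7.95% of all 2427 coding genes of that length had one. Of the 17 genes of 20 to under 100 kb, 1 had a peak (5.88%), where 2.0% of all such genes had one. None of the 12 genes under 20 kb had a peak, where 0.765% of all such genes had one. The median length was 80.6 kb in the acetyltransferase and coactivator genes, 27.6 kb in the zinc-dependent deacetylase genes, 18.6 kb in the sirtuin genes, 29.3 kb in the bromodomain genes and 17.2 kb in all coding genes.

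Per length, the 37 genes with their flanks held 0.864 summits per Mb (Poisson 95% interval 0.178 to 2.53), from 3 summits in 3.47 Mb. All coding genes held 0.358 per Mb, which lies inside that interval. The acetyltransferase and coactivator genes held 2.21 per Mb (0.456 to 6.46). The value of all coding genes lies below this interval, but this class alone holds all 3 summits, so the interval cannot show an excess. The genes and their classes were chosen with peaks already known, so both intervals are descriptions and no test. The deacetylase genes of both kinds, with 0 summits in 1.85 Mb, allow up to 1.99 per Mb, above the value of all coding genes.

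**Figure D4:**
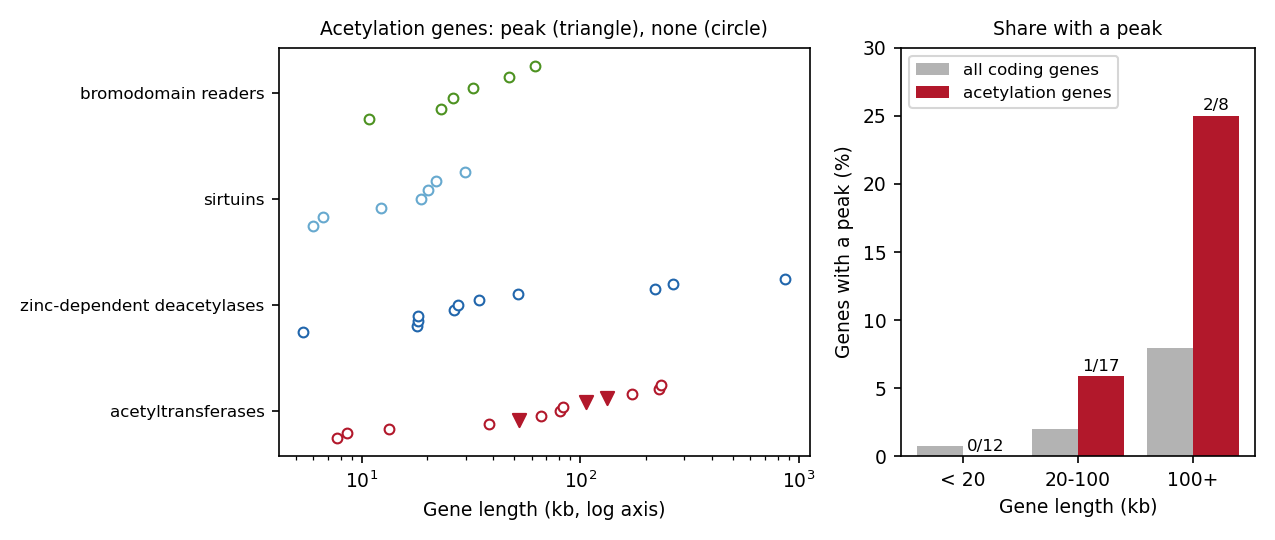
Left, the length of each of the 37 genes in kb (log axis) by class, with triangles for genes that had a peak and open circles for those without. Right, the percentage of genes with a peak by length class for all coding genes (grey) and for the acetylation genes (red, with the number of genes): 0 of 12, 1 of 17 and 2 of 8.

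Around these enzymes, 143 further genes of the acetylation pathway were examined, and 6 of them (4.20%, Wilson interval 1.94 to 8.85%) had a peak, where the share of all coding genes, 2.0%, lies inside that interval. Their median length was 39.5 kb, against 17.2 kb in all coding genes. Among 10 other acetyltransferase genes, such as Clock and Elp3, there was none, and among 34 subunit genes of deacetylase complexes, such as Ncor1, Sin3a and Chd4, there was none. The upper Wilson limits are 27.8% and 10.2%. The 6 genes with a peak belonged to the remaining groups, described next.

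Of 33 subunit genes of acetyltransferase complexes, 1 had a peak (3.03%, Wilson interval 0.537 to 15.3%), near the 2.0% of all coding genes. Ing3 encodes a TIP60 complex subunit that binds methylated histone H3. Its peak at chromosome 6, 21950930 to 21951109, scored 58.65 at a height of 6, with the summit 1408 and 1364 bp downstream of 2 annotated starts. At 5.32% of the gene's length it stood nearer to a start than the summits of Crebbp, Kat2b and Hat1.

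Of 36 other reader genes, 2 had a peak (5.56%, Wilson interval 1.54 to 18.1%), beside 2.0% of all coding genes. These genes are long, with a median of 84.7 kb. Of all coding genes of 20 to under 100 kb, 2.0% had a peak, and of those of 100 kb or longer, 7.95%. Atad2 (41482 bp) falls in the first of these length classes and Ash1l (128962 bp) in the second. Atad2, which encodes a bromodomain ATPase, had its summit in the middle of the gene, 19.8 and 21.6 kb from its ends (score 53.66, height 6). The summit near Ash1l, a gene for a bromodomain-bearing histone methyltransferase, lay 3691 bp beyond that gene and only 909 bp from Rusc1 (score 73.21, height 11).

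Of 19 genes of acetyl-CoA or NAD metabolism, Acacb was the only one with a peak (5.26%, Wilson interval 0.935 to 24.6%, beside 2.0% of all coding genes). It encodes acetyl-CoA carboxylase 2, which turns acetyl-CoA into malonyl-CoA at the mitochondrial surface. The peak at chromosome 5, 114173052 to 114173167, scored 142.08 at a height of 16 (Poisson interval 9.15 to 26.0), and 3.74% of all peaks scored higher. Its summit lay 26.8 kb from the 5' end of the gene, at 25.7% of the gene's length. The annotated start lies inside the gene, and the summit was 7615 bp downstream of that start. Acly and Acss2, whose enzymes make acetyl-CoA in nucleus and cytosol, and Nampt, the gene of the NAD salvage enzyme, had none within 5 kb.

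Among 11 genes of the nuclear GAPDH route, Gapdh and Bax had peaks (18.2%, Wilson interval 5.14 to 47.7%, beside 2.0% of all coding genes). Gapdh, on the minus strand, had 3, with scores of 156.41, 163.68 and 167.61 and summits 3647, 3302 and 2962 bp downstream of the annotated start, at 94.0%, 86.6% and 79.2% of the gene's length. Each of them scored higher than the peaks of Crebbp, Kat2b and Hat1. The Bax summit (score 50.72, height 5) lay 1360 bp past the 3' end of Bax, and Ftl1 was nearer to it at 449 bp. Trp53, Cdkn1a, Mdm2, Bbc3, Siah1a, Siah1b, Rilpl1, Nos1 and Nos2 had no peak.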

How the data were processed

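The files were a peak list and a summit list of the whole series, from 2 AceGAPDH and 2 input libraries. The submitters' processing notes name FastQC, Bowtie2, MACS and mm10; their versions and settings, and the libraries used to call peaks, are not given in the sources. The authors deposited a score per peak, whose scale is not stated, and a whole-number pileup signal at each summit, called height; both were used only to describe and rank peaks within the list. Depth per library is unknown.

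Genes came from a RefSeq table of GRCm38.p6, the assembly of mm10. Of 49943 genes, 340 with starts below 3 Mb (Y excepted) were dropped, since their coordinates belong to scaffolds. All 221 listed genes matched by symbol. Strand and starts came from the RefSeq promoter table, which held 30 of the 37 genes. Positions are 1-based. Peaks were placed by summit, within 5 kb of a gene, and placement was tested on simulated data. No significance test was made. Wilson and exact Poisson 95% intervals cover counting error only. Genes whose windows overlap share summits in the counts per Mb over all coding genes. The 37 genes and the other lists were chosen with earlier results of these data known. Every one of the 37 genes, every other listed gene with a peak and the gene nearest to each peak of the 37 are named; other neighbours and other listed genes without a peak are examples. A peak list holds no expression, so the labelled cell type could not be checked. Alternatives varied the window, the peak set and the placement. Computations used numpy 2.4.6 and pandas 2.3.3 for placement, scipy 1.17.1 for intervals and matplotlib 3.10.9 for plots, under Python 3.11.15.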

Additional observations from a re-analysis of the deposited data

How the results depend on the processing

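The 3 genes Crebbp, Kat2b and Hat1 were counted with windows of 0, 1, 5 and 10 kb, by any base of the peak, without peaks of height 20 or more, and with each summit given to its nearest coding gene only, an alternative chosen after seeing the data; 50 kb added Ncoa3 (4 genes, median score 56.8). Score limits shrink the list by construction: at or above the median score 1 gene, Kat2b, was left, at scores of at least 60 there were 0, and at 100 or more 0. The other pathway genes with a peak, 6 in the report, were 14 with 50 kb, 4 (without Ash1l and Bax) inside the gene, with 1 kb and with nearest genes only, 4 (without Bax and Atad2) at or above the median score, 3 at scores of at least 60 and 2 at 100 or more; they were 6 under the other alternatives run. The share of all coding genes with a peak, 2.0% in the report, was 1.55% inside the gene, 1.67% with 1 kb, 2.33% with 10 kb, 5.24% with 50 kb, 0.983% at or above the median score, 0.707% at 60, 0.101% at 100 and 1.81% with nearest genes only. Summits per Mb at the 37 genes ranged from 0.588 (50 kb) to 0.967 (inside the gene) over the windows, and were 0.288 at or above the median score and 0 at scores of at least 60 or 100. Heights of 6 to 8 limit the precision at the 3 genes. No paired analysis was possible because the lists hold no values per library.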

Other observations

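Enzymes of histone lysine methylation, a list of 41 genes of another chromatin mark, had 3 genes with a peak (7.32%, Wilson interval 2.52 to 19.4%), and a summit density of 0.834 per Mb (Poisson interval 0.172 to 2.44), beside 8.11% and 0.864 per Mb for the 37 acetylation genes and 2.0% and 0.358 per Mb for all coding genes. The difference between the lists was not tested. The median length was 50.9 kb in the methylation genes, 29.8 kb in the 37 acetylation genes and 17.2 kb in all coding genes. The 3 genes were Ehmt1, which encodes the histone H3 methyltransferase GLP (score 55.20, height 5), Kdm2b, a histone demethylase gene (score 56.87, height 7), and Prdm2, a methyltransferase gene (score 50.19, height 7). All 3 summits lay inside the gene, as in Crebbp, Kat2b and Hat1, and the genes were 128875, 118607 and 105379 bp long. Of all coding genes of 100 kb or longer, 7.95% had a peak. The Ehmt1 summit lay at 9.59% and the Kdm2b summit at 62.5% of the gene's length from the 5' end. The strand of Prdm2 is not given, and its summit lay 7032 bp from the nearer end of the gene. The summits of Ehmt1 and Prdm2 thus also lay within 10% of the gene's length from an end.

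Of 8 microglial marker genes, Sall1 had a peak, and of 4 astrocyte marker genes, Slc1a3 had one; 4 neuronal, 4 oligodendrocyte and 4 endothelial marker genes had none, beside the 2.0% of all coding genes with a peak. These are counts of peaks and say nothing of expression.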
